A study of Mus musculus with 12 samples.

Results

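Serum of tumor-free mice was sequenced with and without removal of 5′ tRNA fragments, and the comparison below covers the 6 such libraries among the 12 libraries of the series. They came from 3 female athymic NCr nude mice, numbered 1046, 1047 and 1069, that were 4 to 6 weeks old in the xenograft model. Blood was drawn before human SH-SY5Y neuroblastoma cells were injected, so these mice carried no tumor. RNA from 50 μl of each serum was divided over 2 aliquots. One aliquot was hybridized to biotinylated DNA probes against the 5′ fragments of abundant tRNAs, which the study designed for the glutamine, glycine, valine and histidine types, and the bound fragments were pulled out on streptavidin beads. The other aliquot was sequenced undepleted. The 3 depleted libraries were therefore each compared with the undepleted library that carries the same mouse number in its label. The other 6 libraries came from the same mice 2 weeks after injection, and they are used only where the depletion effect is set beside that in tumor-bearing serum. All mice were immunodeficient, with no functional thymus, and both aliquots of a serum shared the bleed, the clotting step and the RNA isolation.

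MiRNAs are short RNAs that guide Argonaute proteins to messenger RNAs, and many circulate in serum in stable complexes. The 5′ tRNA fragments arise when angiogenin or related nucleases cut a mature tRNA in its anticodon loop, and mouse serum is known to carry large amounts of them. Because they are ligated into small RNA libraries together with miRNAs, they compete with miRNAs for sequencing reads. The values here are raw counts per mature miRNA. Reads of tRNA fragments and total reads per library were not analysed here, so a gain in miRNA counts is a gain in counts and not in the fraction of a library.

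The tables list miRNAs by accession, and only mmu-miR-16-5p (MIMAT0000527) could be paired with a name. It is shown because it had the highest mean normalised count of the tumor-free libraries and its share of counts differed between the aliquots of every serum. Other markers of serum or of blood cells could not be checked by name. This miRNA is abundant in red blood cells and is known to act on cell cycle genes and on the apoptosis inhibitor Bcl2. The RefSeq mature sequence is 22 bases long with 45.5% G and C, and its seed, bases 2 to 8, is in capitals.
mmu-miR-16-5p: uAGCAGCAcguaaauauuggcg
The same mature sequence is made from a pair of hairpins, so counts cannot tell the loci apart. In the RefSeq annotation of GRCm38.p6 the copy in Mir16-2 lies at chr3:69009918-69009939 on the plus strand. By the GENCODE annotation this is inside the protein-coding gene Smc4 and outside its exons. The copy in Mir16-1 lies at chr14:61631936-61631957 on the minus strand by RefSeq. By GENCODE this is within the long non-coding gene Dleu2 and outside its exons. The hairpins are shown with the mature miRNA in capitals, since they share it and differ around it.
Mir16-2: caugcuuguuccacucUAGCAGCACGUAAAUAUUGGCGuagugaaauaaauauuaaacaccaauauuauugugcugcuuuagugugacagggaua
Mir16-1: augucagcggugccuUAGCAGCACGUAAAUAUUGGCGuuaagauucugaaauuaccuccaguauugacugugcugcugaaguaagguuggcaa

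The sera were not alike in depth. Mouse 1069 gave the shallowest undepleted library, with 21235 miRNA counts. Over 87 miRNAs with at least 10 counts in every undepleted library, the deviations from the group means correlated between the aliquots of the same mouse at r = 0.807 to 0.903. Between mice 1046 and 1047 r was 0.519 and 0.586, and between mouse 1069 and the others it was −0.821 to −0.717. Deviations from a group mean depend on each other, so a mouse unlike the others moves all of these values. These are descriptions across miRNAs, which are not independent replicates. Results are therefore given within each serum, and the counts of called miRNAs also without mouse 1069.

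Every depleted aliquot yielded many more miRNA counts than the undepleted aliquot of the same serum. For mouse 1046, 1348316 counts were obtained after depletion and 97183 without it, a 13.9-fold difference. For mouse 1047 the totals were 1820856 and 90001, which is 20.2-fold. For mouse 1069 they were 938706 and 21235, which is 44.2-fold. The groups did not overlap, and the lowest depleted total was above the highest undepleted total. The geometric mean of the ratios was 23.2, and the log2 ratio was 4.53 ± 0.85 (SD, n = 3 sera). The two-sided exact sign-flip permutation test over the 3 sera gave p = 0.25, the smallest p that 3 pairs allow (adjusted p = 0.292 over 7 such tests). Reads were counted after 15 cycles of PCR without molecular identifiers, so the counts are not independent molecules and intervals cover counting error only.

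The gain was of like size without the top miRNA and in the human tables. When the miRNA with the highest count was left out of each library, the ratios were 14.4, 20.7 and 44.3. The miRNA left out was not the same in both aliquots of a serum. It held at most 17.8% of a library's counts, so leaving it out could change the ratios little. In the tables of the same libraries counted against human miRNAs they were 13.8, 22.4 and 50.2. Being of the same libraries, these ratios are not independent of those in the mouse tables. The order of the sera was the same in each case, with mouse 1069 gaining the most.

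**Figure D1:**
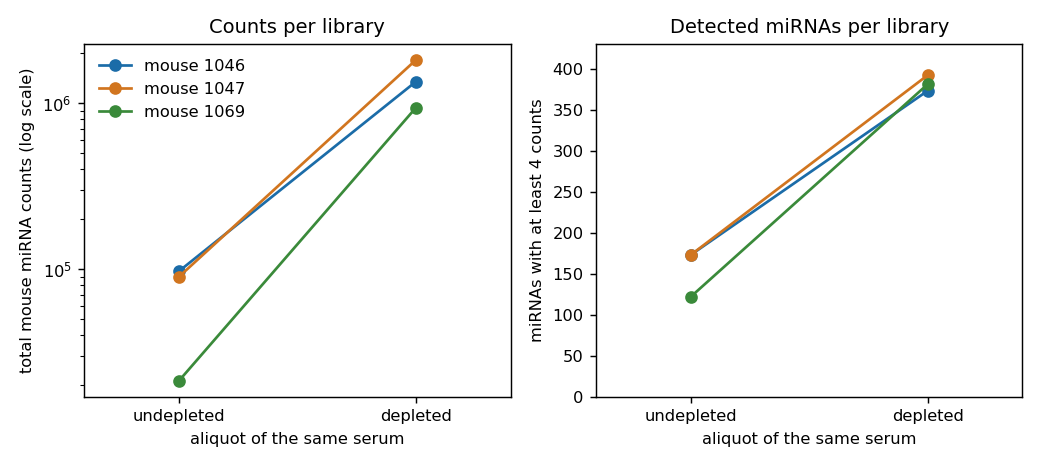
Total mouse miRNA counts (left, log axis) and number of miRNAs with at least 4 counts (right) in each tumor-free serum library, with a line joining the undepleted and depleted aliquot of one mouse. All 3 lines rise in both panels, from 21235 to 97183 counts up to 938706 to 1820856 counts.

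More miRNAs were detected after depletion in all 3 sera. With a cut-off of 4 counts, 373, 392 and 381 miRNAs were detected in the depleted aliquots of mice 1046, 1047 and 1069. In the undepleted aliquots the numbers were 173, 173 and 122. The gain was 200, 219 and 259 miRNAs, or 226 ± 30.1 (SD, n = 3), with p = 0.25 by the exact sign-flip permutation test. Every miRNA detected in an undepleted aliquot was also detected in the depleted aliquot of the same serum. Together the added miRNAs held a small part of the counts. Those under 4 counts in the undepleted aliquot held 0.667%, 0.403% and 1.75% of the counts of the depleted aliquot. Not all of them were rare, and an example in mouse 1069 had 3560 counts after depletion and 0 without it.

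The difference in detection was far smaller when depth was made equal. Each depleted library was reduced to the total count of its undepleted partner by exact rarefaction, which gives the expected number of miRNAs at that depth without random draws. It then held 189.9, 179.4 and 133.2 detected miRNAs, a gain of 16.9, 6.36 and 11.2 (11.5 ± 5.26, SD, n = 3). With all 6 libraries at 21235 counts, the gain was 7.33, 5.16 and 11.2 miRNAs. The expected number stayed higher in the depleted aliquot of each serum, with p = 0.25 by the exact sign-flip permutation test.

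**Figure D2:**
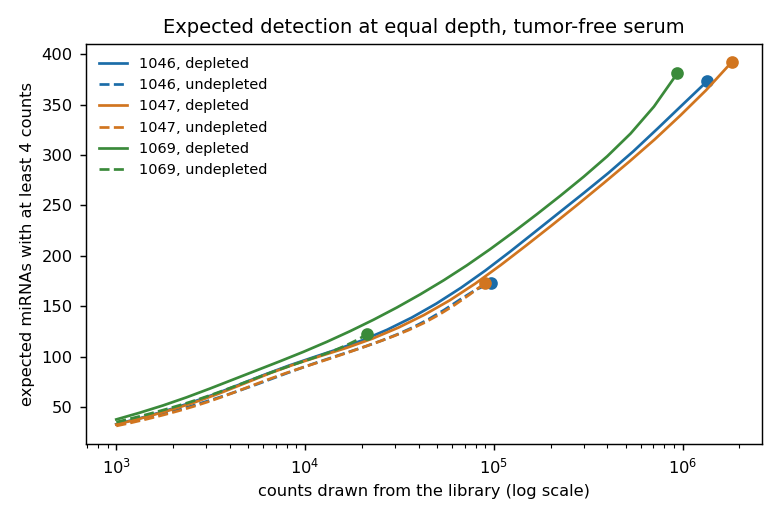
Expected number of miRNAs with at least 4 counts (vertical axis) when each tumor-free library is reduced to a given total count (horizontal log axis), with solid lines for the 3 depleted and dashed lines for the 3 undepleted libraries. At 21235 counts the curves of the aliquots of a serum lie 5.16 to 11.2 miRNAs apart, while the depleted curves reach 373 to 392 miRNAs at full depth.

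Across the 6 libraries 728 miRNAs had at least 1 count. Of these, 354 were counted in both groups, 359 in the depleted group alone and 15 in the undepleted group alone. The 15 miRNAs of the undepleted group had no more than 1 count in any library. Most of the 359 were also scarce, with a median of 4 counts summed over the 3 depleted libraries, and together they held 0.0830% of the depleted counts. A smaller set of 107 was counted in all 3 depleted libraries, and 29 had at least 4 counts in each. Depleted libraries were 20.8 times deeper by size factors. At that scale, 325 of the 359 miRNAs were expected at under 1 count in the undepleted libraries together, and 7 were expected at 3 counts or more. For the 359 together 164.1 undepleted counts were expected, against the 0 by which they were chosen. Why they were absent was not tested.

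The relative levels of miRNAs were alike in the aliquots of a serum. Over miRNAs that reached 4 counts in the depleted and in the undepleted library, Pearson's r of log10 counts was 0.970 for mouse 1046 (173 miRNAs), 0.960 for mouse 1047 (173 miRNAs) and 0.955 for mouse 1069 (122 miRNAs). Spearman's rho was 0.954, 0.947 and 0.941. These are correlations across the miRNAs of a serum and carry no test. With all miRNAs counted in either aliquot, r was 0.927, 0.932 and 0.892. The 10 most abundant miRNAs of the aliquots shared 10, 10 and 9 members, and the 50 most abundant shared 45, 46 and 45.

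The concentration of counts in a few miRNAs was close in both groups. The 10 most abundant miRNAs held 71.8%, 72.1% and 65.3% of the counts in the depleted aliquots of mice 1046, 1047 and 1069, against 71.3%, 72.5% and 67.5% in the undepleted ones. The paired difference was −0.710 ± 1.30 percentage points (SD, n = 3), with p = 0.75 by the exact sign-flip permutation test. The 50 most abundant held 94.5% ± 0.98 after depletion and 95.5% ± 0.57 without it. That difference of −1.05 ± 0.41 percentage points had the same sign in all 3 sera and p = 0.25 by the exact permutation test.

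MiR-16-5p made up a smaller share of the counts after depletion. It held 12.6%, 12.5% and 10.9% of the counts of the depleted aliquots of mice 1046, 1047 and 1069, and 17.5%, 17.8% and 14.5% of those of the undepleted ones. The groups did not overlap, and the share was 4.60 ± 0.86 percentage points lower on average, with p = 0.25 by the exact permutation test. It was the most abundant miRNA in all 3 undepleted libraries and ranked 3rd in all 3 depleted ones. Its normalised counts, which are counts divided by the library's size factor, were 35583, 38233 and 24966 after depletion and 52948, 53246 and 33453 without it. The normalised counts of the groups overlapped because mouse 1069 was low in both aliquots, but each serum was lower after depletion. The log2 fold change was −0.49 (SE 0.07, DESeq2 adjusted p = 1.05e-09), which is under the 2-fold limit used for calls. Without the mouse as a block the adjusted p was 0.559.

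The other abundant miRNAs differed by less than 2-fold, in both directions. MIMAT0001632 held 13.8% ± 2.29 of depleted counts and 10.5% ± 1.21 of undepleted counts (SD, n = 3), and its share was higher after depletion in all 3 sera. Its log2 fold change was 0.36 (SE 0.08, DESeq2 adjusted p = 8.14e-05). MIMAT0000531 held 13.6% ± 0.61 and 13.5% ± 0.57, a difference below the spread between sera. MIMAT0000248 held 4.35% ± 1.32 after depletion and 3.16% ± 0.53 without it, and its log2 fold change was 0.40 (SE 0.11, adjusted p = 0.00284). MIMAT0000208 and MIMAT0000221 had log2 fold changes of −0.23 (SE 0.08, adjusted p = 0.0474) and −0.24 (SE 0.08, adjusted p = 0.0309). With TMM factors in DESeq2 these were −0.09 (adjusted p = 0.692) and −0.10 (adjusted p = 0.708), and both also missed 0.05 with the filter of 4 counts in 3 libraries, without independent filtering and without mouse 1046 or 1047. MIMAT0000208 missed it with total counts (adjusted p = 0.0674) and no prior (adjusted p = 0.0535) as well. Without the mouse as a block, the adjusted p of MIMAT0001632, MIMAT0000248, MIMAT0000208 and MIMAT0000221 was 0.784 to 0.903. MIMAT0001632 missed 0.05 without mouse 1047 (adjusted p = 0.0986), and MIMAT0000248 without mouse 1046 (0.0976) or mouse 1047 (0.160). For MIMAT0000539 the log2 fold change was 0.23 (SE 0.11, adjusted p = 0.188), and for MIMAT0000652 the shares were 3.52% ± 0.31 and 3.47% ± 0.65. None of these 8 miRNAs differed by 2-fold.

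A miRNA was called different when DESeq2, with the mouse as a block, gave a Benjamini-Hochberg adjusted p under 0.05 and a fold change of at least 2. Of 333 miRNAs tested, 18 were called (5.41%), of which 11 were higher after depletion (3.3%) and 7 were lower (2.1%). With the adjusted p alone, 43 differed (12.9%), 27 of them higher and 16 lower. The median log2 fold change of all tested miRNAs was 0.045, with an interquartile range of −0.28 to 0.35. Without mouse 1069, 13 miRNAs were called, 10 higher and 3 lower. Without mouse 1046 or without mouse 1047, 11 were called, 7 higher and 4 lower. Of the 18 miRNAs, 9 were called whichever serum was left out, and 6 were called under every alternative tried.

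The share of tested miRNAs that were called was highest at moderate abundance. It was 14.3% at mean normalised counts of 100 to 1000 and 1.46% below 10. Among the 33 tested miRNAs whose normalised counts averaged 1000 or more, 1 was called, and 97.0% lay within 2-fold when fold changes were fitted without a prior. Between 100 and 1000, 9 of 63 were called, 6 of them higher. Between 10 and 100, 6 of 100 were called, 5 of them higher. Below 10, 2 of 137 were called, both lower, and 48.9% lay within 2-fold. The standard error of the log2 fold change, fitted with the prior, moved with abundance, from a median of 0.106 in the highest class to 0.503 in the lowest. For the 2 called miRNAs below 10 it was 0.536 and 0.518 with the prior, and 1.13 and 1.38 without it. A 2-fold difference was therefore often not detectable for rare miRNAs. Among the 42 miRNAs with at least 50 counts in every undepleted library, 39 lay within 2-fold. Their fitted values ran from −2.22 to 0.61 on the log2 scale, with 0 called higher and 3 called lower. This set was chosen on undepleted counts alone, which leaves out miRNAs that were low there and rose after depletion. The upper end of the range depends in part on that choice.

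**Figure D3:**
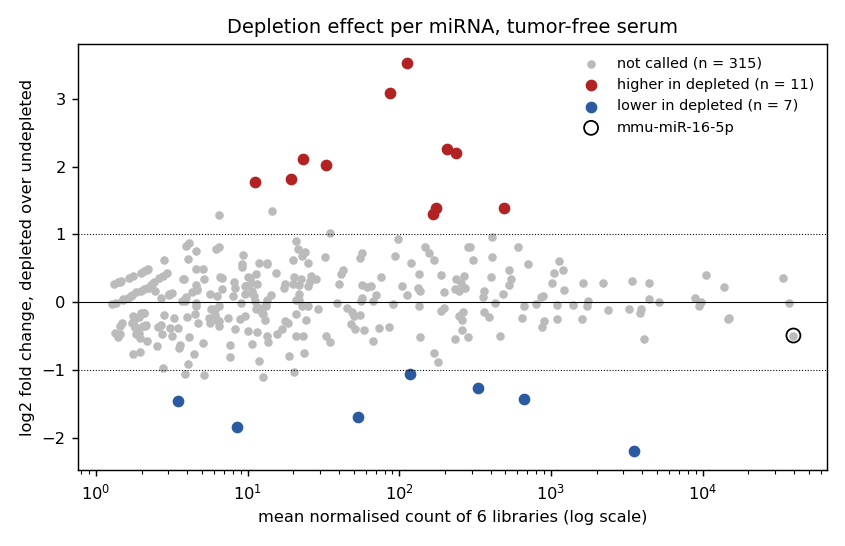
Log2 fold change of depleted over undepleted aliquots (vertical axis) against the mean normalised count (horizontal log axis) for the miRNAs tested in tumor-free serum, with the 11 called higher and 7 called lower in color, miR-16-5p circled, the others in gray and dotted lines at 2-fold. Above a mean of 1000 all points but 1, MIMAT0004825, lie between the dotted lines. Fold changes are shrunken by the prior.

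MIMAT0004825 had the smallest adjusted p and was lower after depletion. Its normalised counts were 1273, 1580 and 891 in the depleted aliquots of mice 1046, 1047 and 1069, and 7221, 6130 and 4070 in the undepleted ones. Every depleted library was below every undepleted library, and the means were 1248 ± 345 and 5807 ± 1600 (SD, n = 3), a 4.65-fold difference. The log2 fold change was −2.19 (SE 0.12, DESeq2 adjusted p = 2.05e-66). The counts behind these values were 6075, 9426 and 3635 after depletion and 2317, 1845 and 374 without it, so its raw counts were higher after depletion, by a smaller factor than the library totals. It held 0.452% ± 0.065 of all counts after depletion and 2.07% ± 0.31 without it.

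MIMAT0000211 was also lower. Its normalised counts were 86.1, 111 and 389 after depletion and 221, 276 and 903 without it, for mice 1046, 1047 and 1069. Mouse 1069 was high in both aliquots, so the groups overlapped although each serum was lower after depletion. The log2 fold change was −1.26 (SE 0.16, DESeq2 adjusted p = 4.98e-13). Without the mouse as a block it was −1.07 with an adjusted p of 0.456, and the call was lost.

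MIMAT0000534 was higher after depletion. Its normalised counts were 686, 800 and 653 in the depleted aliquots and 249, 289 and 272 in the undepleted ones. The groups did not overlap, and the means of 713 ± 77.3 and 270.1 ± 19.9 (SD, n = 3) differed by 2.64-fold. The log2 fold change was 1.39 (SE 0.16, DESeq2 adjusted p = 1.44e-15).

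MIMAT0004934 was higher by a larger factor. Its normalised counts were 320, 361 and 353 after depletion and 43.6, 76.4 and 87.1 without it. All depleted libraries were above all undepleted ones, with means of 344.9 ± 21.6 and 69.0 ± 22.6 (SD, n = 3). The log2 fold change was 2.26 (SE 0.26, DESeq2 adjusted p = 1.54e-15). Its undepleted values rest on 14, 23 and 8 counts.

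**Figure D4:**
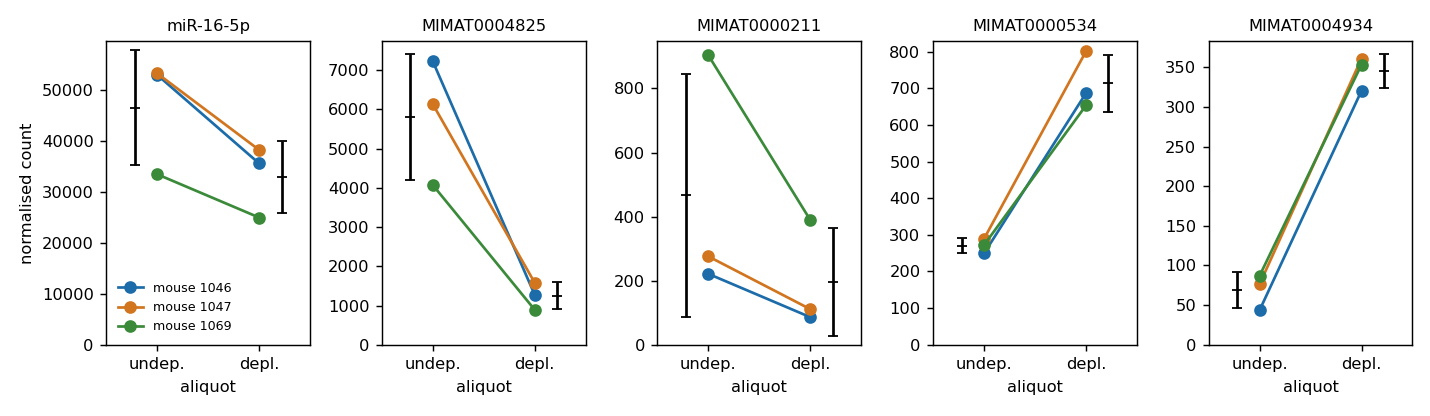
Normalised counts (vertical axes from 0, a scale per panel) of miR-16-5p and the 4 called miRNAs described by accession, in the undepleted and depleted aliquot of each of the 3 mice, with a line per mouse and the mean ± SD in black. The lines of MIMAT0000534 and MIMAT0004934 rise and those of the other 3 fall in every mouse, and mouse 1069 is the highest line for MIMAT0000211.

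The remaining called miRNAs included several that were nearly uncounted without depletion. Of the 11 higher miRNAs, 7 had fewer than 10 counts in the 3 undepleted libraries together, and so did 2 of the 7 lower ones. The share of all tested miRNAs with so few undepleted counts was not worked out, so these numbers are a description. Low counts were common, since 137 of the 333 tested miRNAs had a mean normalised count below 10. The miRNA with the fourth smallest adjusted p had 658, 886 and 1478 counts in the depleted libraries and 2, 2 and 1 counts in the undepleted ones. Its ratio after scaling was 29.1, with a 95% counting interval of 12.5 to 89.7. Another had 1345, 1406 and 3560 counts after depletion and 3, 6 and 0 without it, where 304 were expected from the depth, and its ratio was 33.8 (17.8 to 73.9). One miRNA had 78, 113 and 130 counts after depletion and none without it. With 3 counts assumed over the undepleted group it was 5.15-fold higher. The lower end of the two-sided 95% counting interval was 4.17. The first of these 3 miRNAs was called whichever serum was left out. The second was not called without mouse 1046 (log2 fold change 0.60, DESeq2 adjusted p = 0.514) or without mouse 1047 (1.45, adjusted p = 0.0577). The one with no undepleted counts was not called when any 1 serum was left out, with log2 fold changes of 0.90 to 1.11. These fold changes are shrunken by the prior and are not on the scale of the ratios above. With all 3 sera the second had a log2 fold change of 2.21 with the prior and 5.15 without it. For the one with no undepleted counts the values were 1.78 and 4.59.

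The directions were mostly the same in every serum. All 11 higher miRNAs were higher in all 3 sera and had groups that did not overlap. Of the 7 lower miRNAs, 6 were lower in all 3 sera and 4 had groups that did not overlap. They were called from these same libraries with the mouse as a block, so such agreement follows in part from that choice. Among all tested miRNAs, 66 had groups that did not overlap (19.8%). The log2 fold changes of the called miRNAs ran from 1.30 to 3.52 for those higher and from −2.19 to −1.05 for those lower.

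Together the 18 called miRNAs held a small part of the miRNA counts. They made up 1.68% ± 0.41 of depleted counts and 2.90% ± 0.15 of undepleted counts (SD, n = 3). Those called higher held 0.971% ± 0.304 after depletion and 0.200% ± 0.0148 without it. Those called lower held 0.705% ± 0.117 and 2.70% ± 0.16, most of it MIMAT0004825.

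The size of the depletion effect varied between sera by more than counting error for the well counted miRNAs. Over the 42 miRNAs with at least 50 counts in every undepleted library, the median SD of the paired log2 ratio between sera was 0.167, against 0.083 from counting alone. For 45 miRNAs with a lowest undepleted count of 10 to 49 the values were 0.235 and 0.230, and for 30 miRNAs with a lowest undepleted count of 4 to 9 they were 0.356 and 0.470. The spread between mice was of like size in both groups for the well counted miRNAs, with a median coefficient of variation of 27% after depletion and 23.7% without it. For the 30 rarest of these miRNAs it was 23.2% after depletion and 41.0% without it.

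The same procedure in serum drawn 2 weeks after tumor cell injection, in libraries that the tumor-free fit did not use, gave 21 called miRNAs of 281 tested (7.47%), 14 higher (4.98%) and 7 lower (2.49%). All 18 miRNAs called in tumor-free serum had the same sign there, and 16 were called there too. Of the 25 tumor-free miRNAs past the adjusted p but under 2-fold, 24 had the same sign and 20 had an adjusted p under 0.05. Among tested tumor-free miRNAs that were not past the adjusted p, 180 of 287 with a value had the same sign (62.7%). Both sets of libraries came from the same 3 mice and the same depletion protocol. The log2 fold changes in tumor-bearing serum were −2.67 for MIMAT0004825, −1.26 for MIMAT0000211, 1.17 for MIMAT0000534, 2.99 for MIMAT0004934 and −0.55 for miR-16-5p.

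**Figure D5:**
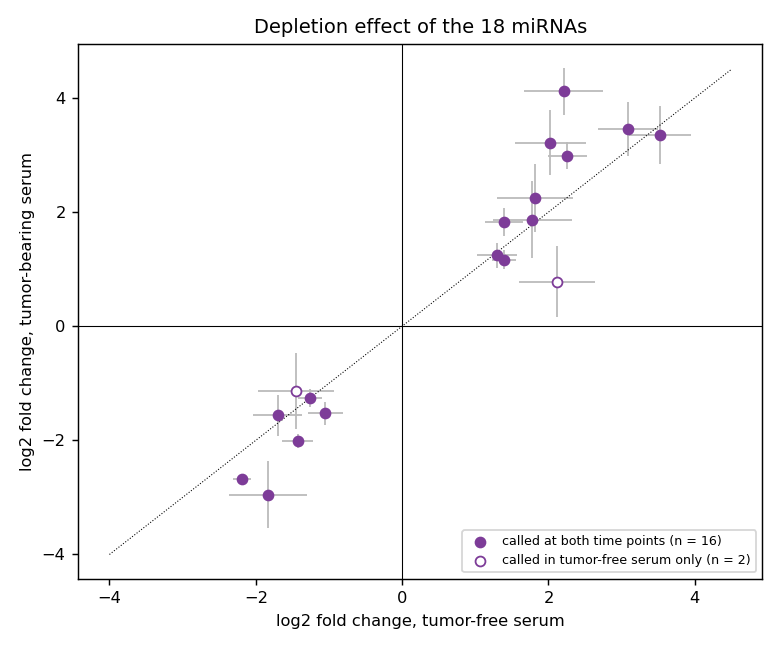
Log2 fold change of depleted over undepleted aliquots in tumor-bearing serum (vertical axis) against that in tumor-free serum (horizontal axis) for the miRNAs called in tumor-free serum, with standard errors as bars, filled points for the 16 called at both time points and a dotted line of equality. All 18 points lie in the lower left or upper right quadrant.

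No difference of the depletion effect between the time points passed the test. In DESeq2 with the serum as a block, 0 of 874 miRNAs had an adjusted interaction p under 0.05 (0%), and 8 had an unadjusted p under 0.05. EdgeR's quasi-likelihood test called 3 of 265, MIMAT0014944 and MIMAT0004825 among them, with 22 at an unadjusted p under 0.05. The smallest interaction p values belonged to MIMAT0014944, MIMAT0004825 and MIMAT0000539, whose log2 effects were lower in tumor-bearing serum by 0.57 (SE 0.19), 0.44 (SE 0.15) and 0.29 (SE 0.11). For MIMAT0004825 the 95% interval of the difference was −0.73 to −0.16 before adjustment. Over the 18 called miRNAs the median standard error of the difference was 0.686, so sizeable differences between the time points may not have been detectable for many of them.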

How the data were processed

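Small RNA libraries (TruSeq) of mouse serum were compared. Per the labels and the study's methods, the authors trimmed adapters with cutadapt 1.8.1, mapped reads with Bowtie 1.1.2 to GRCm38 and deposited raw counts per mature miRNA, where a miRNA that is not listed was taken as 0. Libraries were pooled before sequencing, so the counts of one library depend on the share it took of a run.

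Counts of the mouse tables were analysed in R 4.3.3 with DESeq2 1.42.0 (Wald test, median-of-ratios size factors, prior on fold changes, independent filtering, mouse number as a block). Calls required an adjusted p under 0.05 and at least 2-fold. edgeR 4.0.16 was an alternative, and other values used Python 3.11.15, NumPy 2.4.6 and SciPy 1.17.1. The fits were tested on simulated data. Totals, detection and shares were compared by exact sign-flip permutation tests over the 3 sera.

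Samples were grouped by their labels. Aliquots were paired because they share a serum and a mouse number. Same-mouse deviations correlated at 0.807, 0.838 and 0.903, and those of different mice at −0.821 to 0.586. The libraries of a group come from separate mice. With the mouse as a block, differences in level between sera are removed. DESeq2 p-values then test the mean depletion effect against the variation left after the block. They do not measure how much the effect varied between sera. The sign-flip tests likewise use the difference within each serum. Depletion was done once per serum, so spread from the procedure cannot be told apart from that between sera.

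The comparison and the miRNAs described were chosen with earlier results of these data known. The rule for miRNAs named was those called with the smallest adjusted p and the same direction in all 3 sera, the 8 most abundant, miR-16-5p and the 3 with the smallest interaction p. Accessions are not paired with names in the sources used here, except for MIMAT0000527, so at most 2 accessions that were called higher and 2 called lower are given, and the 18 lists of miRNA families and cell types, the erythrocyte list included, and the sequence features were not analysed here.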

Additional observations from a re-analysis of the deposited data

How the results depend on the processing

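Of the alternatives to the count of 18 called miRNAs, 8 miRNAs (4 higher, 4 lower) were called with a mean of at least 10 undepleted counts, where fewer miRNAs were tested, and 43 (27 higher, 16 lower) without the fold change limit. Leaving out 1 serum gave 11 to 13. Without the replicate block 17 were called (12 higher, 5 lower, 16 of them among the 18). TMM factors in DESeq2 gave 17 (12 higher, 5 lower) and edgeR with TMM factors and the block 24 (16 higher, 8 lower). Every one of the 18 kept its sign wherever it had a value. The log2 fold change of miR-16-5p ran from −0.56 (edgeR) to −0.35 (TMM factors). MIMAT0000531, at −0.01, changed sign with TMM factors (0.12), scaling to total counts (0.013) and without mouse 1046 (0.024), and ran from −0.058 to 0.024 as 1 serum was left out. MIMAT0000652, at about 0, did so with TMM factors (0.14), total counts (0.025), no prior (0.00035), without mouse 1046 (0.070) and without mouse 1047 (0.014), and ran from −0.12 to 0.070 as 1 serum was left out. The cause was not tested.

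The mean gain in detected miRNAs was 278.7 at a cut-off of 1 count, 186.0 at 10 counts, 7.90 at the smallest depth and 131.7 in the human tables, and 209.5 to 239 when 1 serum was left out. The geometric mean ratio of totals was 16.8 to 29.9 when 1 serum was left out, lowest without mouse 1069. Mean r between aliquots was 0.917 with all miRNAs counted in either. The interaction count was 3 by edgeR and 0 without the block.

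With 3 pairs the exact tests cannot go below p = 0.25, and the undepleted libraries, at 21235 to 97183 counts, limit what can be seen of rare miRNAs. The planned lists and sequence features were not run, because accessions could not be paired with names.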
